A study of Glycine max with 10 samples.

Results

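The step at which the soybean shoot apex is converted into an inflorescence was followed by comparing the 2 arrays taken after 6 short days (SDs) with the 2 taken after 4 SDs, out of 10 arrays in the series, over all 37593 soybean probe sets of the Affymetrix Soybean GeneChip. A probe set is a group of short probes that together represent a transcript. In both groups, plants of the cultivar Bragg spent 10 days in a glasshouse and were then kept in 10 h days in a chamber at a constant 24°C, where they received 6 or 4 SDs. At 6 SD the converted inflorescence meristem was dissected together with the floral meristem next to it, whereas at 4 SD the shoot apical meristem (SAM) alone was taken, and leaf primordia were excluded from both. Each array carries 3 µg of total RNA pooled from many dissected apices, and the 2 replicates of a time point come from separate tissue collections. The dissected tissue, the age of the plants and the number of SDs all differ between the groups and cannot be told apart. In such pooled tissue, fewer cells of a type and less RNA per cell cannot be told apart either. Replicate 2 is the one that the labels call replicate B.

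Flowering in plants rests on a switch in the identity of the meristem, the group of dividing cells at the shoot tip. A vegetative meristem makes leaves, an inflorescence meristem makes floral meristems on its flanks, and a floral meristem makes the organs of the flower. In Arabidopsis, MADS-box transcription factors control much of this switch. SVP represses flowering, FRUITFULL and APETALA1 (AP1) act in the inflorescence and in floral meristem identity, and the SEPALLATA (SEP) factors are needed for the identity of the floral organs. KNOTTED-like homeobox factors such as SHOOT MERISTEMLESS keep the meristem undifferentiated, and cytokinin, auxin, gibberellin and abscisic acid (ABA) act on its growth.

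Values below are log2 intensities, in which a difference of 1 is a doubling, and each pair of values is given as replicate 1 and then replicate 2. The 6 SD arrays were not alike. Replicate 2 had the narrowest spread of intensities of the 10 arrays, with an interquartile range of 3.60 against 3.95 in 6 SD replicate 1 and 3.94 to 4.02 in the other 8. The median gap between the 6 SD arrays was 0.28, against 0.15 between the 4 SD arrays. When the probe sets were divided into deciles by their mean at 4 SD, the median of replicate 2 minus this mean lay at 0.18, 0.27 and 0.22 in the 3 dimmest deciles and between −0.22 and −0.17 in the 6 brightest. The same medians for replicate 1 stayed between −0.07 and 0.04. Differences in replicate 2 thus carry an offset that varies with intensity, and each result below is given for both replicates where it turns on it. Over all probe sets the median difference between 6 and 4 SD was −0.03, with −0.01 in replicate 1 and −0.04 in replicate 2.

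**Figure D1:**
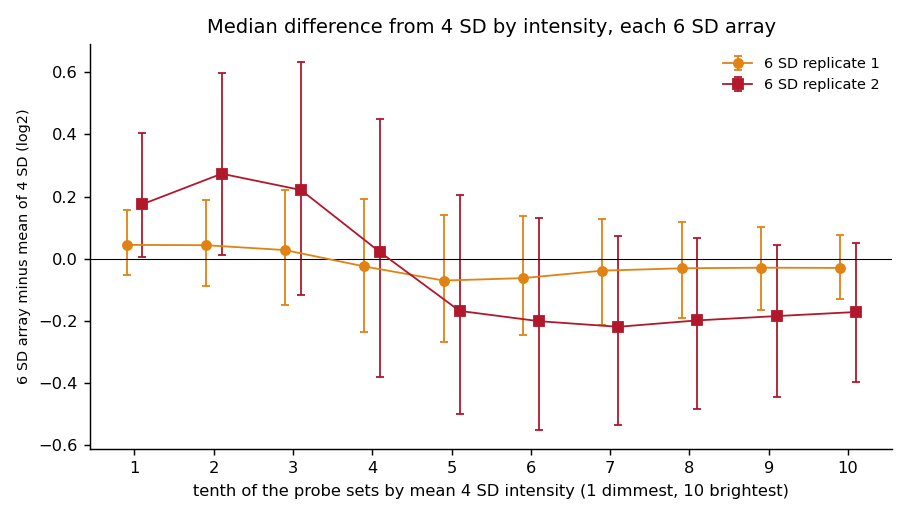
Median difference (points) and interquartile range (bars) of each 6 SD array from the mean of the 4 SD arrays, on the log2 scale, in the deciles of the 37593 probe sets by mean 4 SD intensity. Replicate 2 lies at 0.18 to 0.27 in the 3 dimmest deciles and at −0.22 to −0.17 in the 6 brightest, while replicate 1 stays within −0.07 to 0.04.

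Among the called probe sets, rises outnumbered falls. By limma, with p-values adjusted over all 37593 probe sets, 179 were higher at 6 SD (0.476%) and 23 were lower (0.0612%). The 3 dimmest deciles at 4 SD, where replicate 2 was offset upward, held 6, 27 and 48 of the rises and 0 of the falls. The part of this offset, and of low intensity at 4 SD, in the excess of rises was not tested. The rises had a median difference of 1.43 and ran between 0.70 and 4.09, and their median was 1.38 in replicate 1 and 1.57 in replicate 2. The falls had a median of −1.05, with −1.05 in replicate 1 and −1.12 in replicate 2. In all 179 rises and all 23 falls, both 6 SD arrays lay beyond both 4 SD arrays, and in 112 and 9 of them by at least 1. Among all probe sets, both 6 SD arrays lay above both 4 SD arrays in 7874 (20.9%) and below them in 9981 (26.6%). At an unadjusted p under 0.05 there were 6387 (17.0%). Both 6 SD arrays were separated from both 4 SD arrays by at least 1 in 170 upward (0.452%) and in 20 downward (0.0532%). Taken alone, 6 SD replicate 1 lay at least 1 above both 4 SD arrays in 372 probe sets and at least 1 below in 50. Replicate 2 did so in 1257 and 841. Of the rises, 73 carry a gene symbol or a protein description, and 76 are on the published list of 331 transcripts whose profile changes over the series. That list was drawn up on these same arrays, so the direction of its members is not independent evidence.

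**Figure D2:**
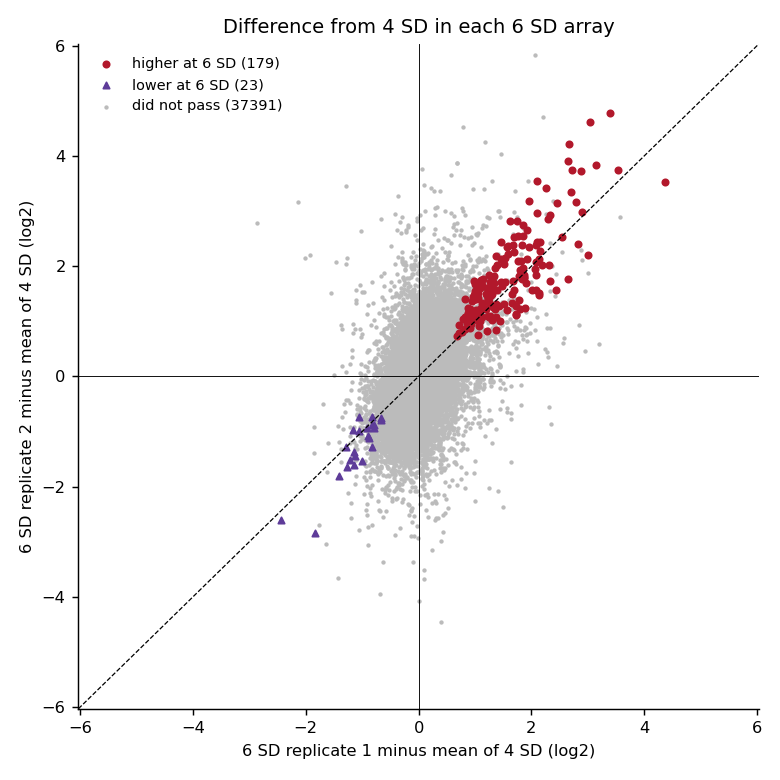
Each 6 SD array minus the mean of the 4 SD arrays (log2), with replicate 1 on the horizontal and replicate 2 on the vertical axis, for 37593 probe sets. The dashed line marks equal differences. The 179 rises and 23 falls lie in the upper right and lower left, and the other points spread farther along the axis of replicate 2.

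The number of calls depended on the arrays. With 4 SD replicate 1 left out, 2 probe sets were called higher and 0 lower, and omitting 4 SD replicate 2 gave 69 and 2. When 6 SD replicate 2 was dropped, the counts were 96 and 9, with 63 of the 179 rises and 4 of the 23 falls still called. Without 6 SD replicate 1, which leaves replicate 2 to stand for the time point, 3554 were higher and 2557 lower, among them all 179 and all 23. Leaving out an array of 0, 1 or 2 SD, which only lends its spread to the test, gave 89 and 9, 35 and 2, and 75 and 7. No called probe set changed sign in any of these fits, but none could, since both 6 SD arrays lay beyond both 4 SD arrays in all of them. Of the 58 called probe sets picked by the naming rule, all 58 held when 6 SD replicate 1 was dropped and 24 when 6 SD replicate 2 was. For the 4 SD arrays, 27 held in the absence of replicate 2 and 1 in that of replicate 1.

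The largest rise of the named transcripts was that of SEP1, and the MADS-box list held 4 rises and 1 fall. SEP1 read 7.27 and 8.66 at 6 SD, against 3.90 and 3.86 at 4 SD. Both 6 SD arrays thus stood far above the 4 SD arrays, which lay close to the 5th percentile of their intensities (3.86 and 3.83), so no fold is given. The difference was 4.09 (SE 0.36, adjusted p = 0.00651), with 3.39 in replicate 1 and 4.78 in replicate 2. A second transcript annotated as SEP1 gave closely matching replicates, 8.24 and 8.33 at 6 SD, against 4.97 and 5.73 at 4 SD. Its rise of 2.93 (SE 0.23, adjusted p = 0.0059) is the 1 named call that held with any single array left out.

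AP1, which confers floral meristem identity in Arabidopsis, read 11.95 and 12.60 at 6 SD, against 8.33 and 10.17 at 4 SD. The groups did not overlap, though the 4 SD arrays lay far apart, both of them well above the mean of 4.9 at 0 SD. AP1 rose by 3.02 (SE 0.49, adjusted p = 0.045). AP1A (listed in RefSeq also under the synonym FULa) read 8.80 and 8.75 at 6 SD, against 6.47 and 7.41 at 4 SD, and rose by 1.83 (SE 0.26, adjusted p = 0.0316). Without 6 SD replicate 2, the differences of AP1 and AP1A were 2.70 and 1.86 and neither passed. The call of AP1 also ended when the test was limited to brighter probe sets and after another quantile normalization.

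Other members did not pass. AGL9, a relative of Arabidopsis SEP3, read 10.94 and 10.27 at 6 SD, against 6.03 and 8.71 at 4 SD, a difference of 3.24 (SE 0.68, adjusted p = 0.0891). The MADS-box transcript M3 had the same shape, with 11.24 and 10.66 at 6 SD against 7.29 and 9.44 at 4 SD and a difference of 2.58 (SE 0.55, adjusted p = 0.0933). In both, the 4 SD arrays differed by more than 2, and replicate 2 was the higher. FRUITFULL had 10.53 and 10.75 at 6 SD, against 9.43 and 10.11 at 4 SD, and its difference of 0.87 did not pass (adjusted p = 0.189). AG1 and MADS28 were high in 1 array alone: AG1 read 6.39 and 8.92 at 6 SD, against 5.74 and 6.11 at 4 SD, and MADS28 read 4.03 and 6.78 at 6 SD, against 3.74 and 3.69 at 4 SD. Neither passed the test (adjusted p = 0.251 and 0.271).

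SVP, a repressor of flowering in Arabidopsis, moved the other way. It read 5.85 and 5.55 at 6 SD, against 7.125 and 6.996 at 4 SD, and fell by 1.36 (SE 0.19, adjusted p = 0.0316). Its replicates lay close together in both groups, but the call ended without 6 SD replicate 2, where the difference was −1.21. In all, 4 of the 16 MADS-box probe sets rose, 1 fell and 11 did not pass, and in 13 both 6 SD arrays lay above both 4 SD arrays. Their median difference was 1.28, with 0.58 in replicate 1 and 1.51 in replicate 2, beside −0.03 over all probe sets. Over all probe sets 0.476% were called higher and 0.0612% lower, and 20.9% had both 6 SD arrays above both 4 SD arrays. Of the 16, 9 come from the published list, whose members were selected on these same arrays.

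**Figure D3:**
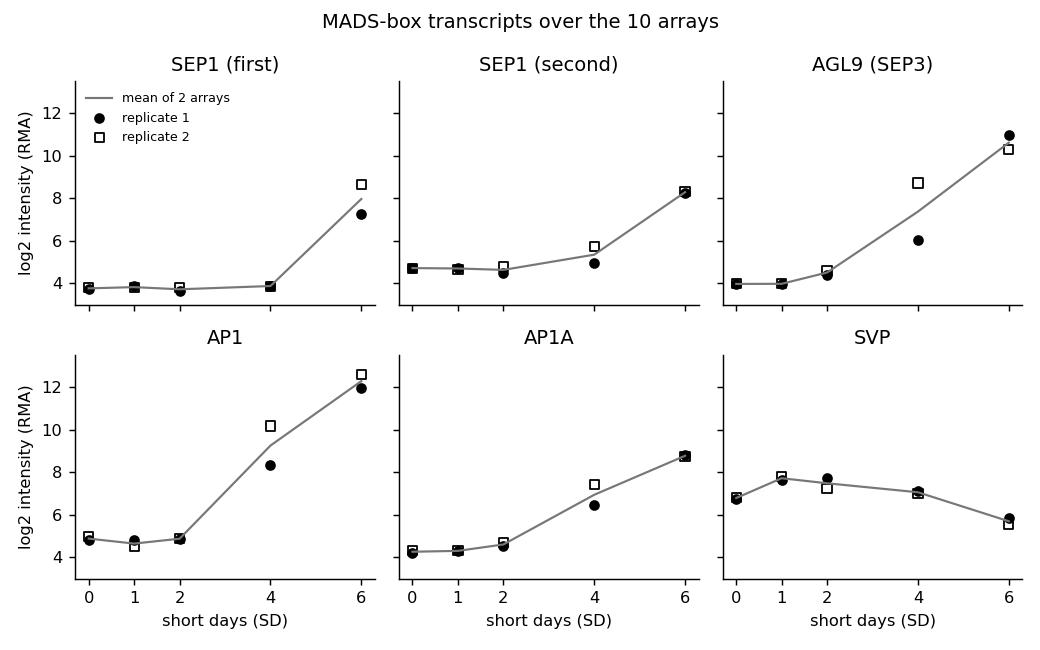
Log2 intensity of 6 MADS-box transcripts at 0, 1, 2, 4 and 6 SD, with both replicates as points and their mean as a line. The first SEP1 transcript is flat until 4 SD and reads 7.27 and 8.66 at 6 SD, AGL9 and AP1 have replicates far apart at 4 SD, and SVP falls to 5.85 and 5.55.

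The photoperiod pathway measures day length and carries the signal to flower. Of 20 probe sets for photoreceptors, clock components, CONSTANS-like and FT-like factors and an SPL factor, 0 were called by limma, with adjusted p between 0.135 and 0.951, and 5 had an unadjusted p under 0.05. Over all probe sets 0.476% were called higher and 0.0612% lower and 17.0% had such an unadjusted p, so a count of 0 among 20 is no result about these genes. Their median difference was 0.01, with 0.01 in replicate 1 and 0.10 in replicate 2. The largest difference was that of the CONSTANS-like COL2A, at 9.41 and 9.62 at 6 SD against 8.28 and 8.75 at 4 SD (difference 1.00, adjusted p = 0.159). SPL9, a squamosa promoter binding protein-like factor, read 7.76 and 7.89 at 6 SD, against 8.61 and 8.28 at 4 SD (difference −0.62, adjusted p = 0.165). The clock gene LCL3 was at odds between replicates, with 8.29 and 6.60 at 6 SD around 7.89 and 8.28 at 4 SD. FT1A was dim in all 4 arrays, at 3.68 and 3.87 at 6 SD against 3.73 and 3.75 at 4 SD.

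Of 13 homeobox probe sets 2 rose, 0 fell and 11 did not pass, beside 0.476% called higher over all probe sets. HDL57, a homeodomain-leucine zipper factor by its symbol, read 9.99 and 10.56 at 6 SD, against 8.75 and 9.17 at 4 SD, and rose by 1.32 (SE 0.21, adjusted p = 0.0427). A zinc finger homeobox transcript read 10.45 and 10.48 at 6 SD, against 9.59 and 9.65 at 4 SD, and rose by 0.84 (SE 0.13, adjusted p = 0.0427). Both calls ended without 6 SD replicate 2, and that of HDL57 also after another quantile normalization. The meristem genes themselves did not pass. SHOOT MERISTEMLESS transcripts read 11.25 and 11.14 at 6 SD against 10.59 and 10.58 at 4 SD (H1, difference 0.61, adjusted p = 0.0949), and 11.90 and 11.52 at 6 SD against 10.89 and 11.36 at 4 SD (a second probe set, adjusted p = 0.241). KNAT2 had a difference of 0.94 (adjusted p = 0.168) and KNAT4 of 0.62 (adjusted p = 0.108). In 11 of the 13 homeobox probe sets both 6 SD arrays lay above both 4 SD arrays, beside 20.9% of all probe sets, and the median was 0.78 in replicate 1 and 0.73 in replicate 2. Of the 13, 8 come from the published list, whose members were selected on these same arrays, so these values are not independent evidence.

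**Figure D4:**
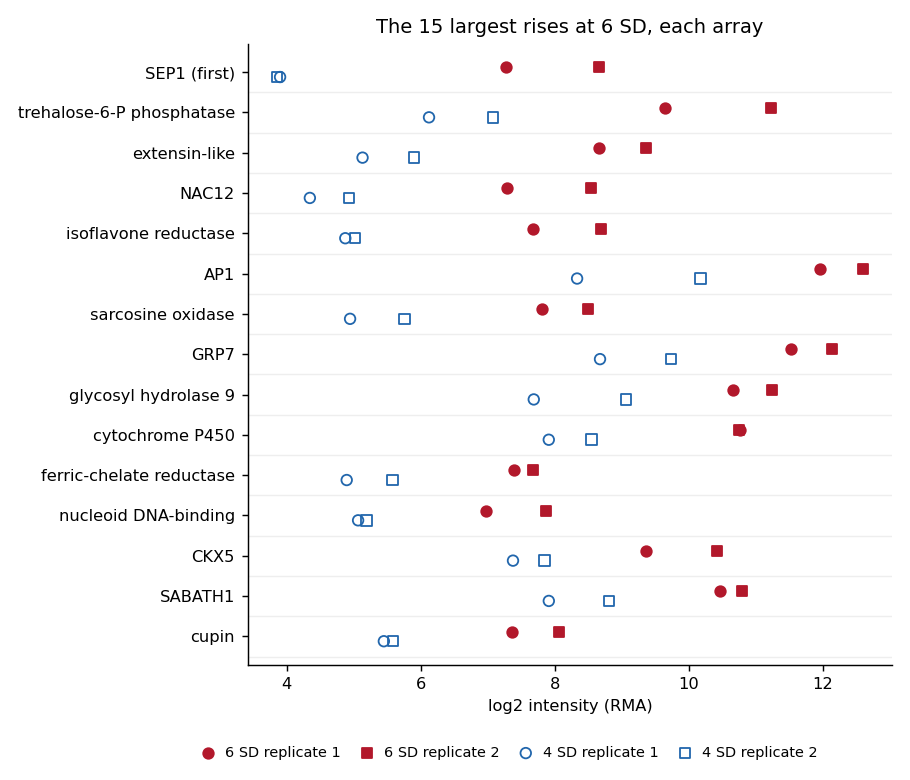
Log2 intensity in each 6 SD array (filled) and each 4 SD array (open) of the 15 largest named rises, circles for replicate 1 and squares for replicate 2. In every row both filled points lie to the right of both open points, and in 14 of the 15 rows the 4 SD replicate 2 lies nearer to them than replicate 1.

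Both probe sets annotated as the cytokinin oxidase CKX5 rose. Cytokinin oxidase, which breaks down cytokinin, was represented by 2 probe sets annotated as CKX5 and 1 as CKX3. The first CKX5 read 9.36 and 10.42 at 6 SD, against 7.38 and 7.85 at 4 SD, and rose by 2.28 (SE 0.34, adjusted p = 0.0362). The second CKX5 probe set read 7.11 and 7.40 at 6 SD, against 5.35 and 5.26 at 4 SD, and rose by 1.95 (SE 0.22, adjusted p = 0.0146). Without 6 SD replicate 2 the differences were 1.75 and 1.81 and neither passed. CKX3 read 7.89 and 7.58 at 6 SD, against 6.15 and 6.64 at 4 SD, which did not pass (difference 1.34, adjusted p = 0.0911). The phosphorelay mediator HP3, which passes on the cytokinin signal in Arabidopsis, read 10.57 and 11.37 at 6 SD, against 7.32 and 9.04 at 4 SD (difference 2.79, adjusted p = 0.0638). The remaining 2 members, given here for completeness after their values were seen, were the receptor AHK4, with 8.56 and 8.13 at 6 SD against 9.11 and 9.22 at 4 SD (difference −0.82, adjusted p = 0.0775), and the synthesis gene IPT, with a difference of 0.32. The list of 6 had a median difference of 1.64, with 1.62 in replicate 1 and 1.64 in replicate 2. Of the 6, 5 come from the published list, so this median is not independent evidence.

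Of 15 ABA-related probe sets 3 rose and 0 fell, 2 of them for an enzyme of ABA synthesis, beside 0.476% called higher over all probe sets. The published list supplied 9 of the 15. The enzyme 9-cis-epoxycarotenoid dioxygenase (NCED), which catalyses the committed step of ABA synthesis, was measured by 2 probe sets of 1 transcript group. The first read 7.78 and 7.27 at 6 SD, against 5.67 and 5.74 at 4 SD, and rose by 1.82 (SE 0.17, adjusted p = 0.00703). The second read 10.47 and 10.02 at 6 SD, against 8.15 and 8.77 at 4 SD, and rose by 1.78 (SE 0.26, adjusted p = 0.0353). In both, the difference was larger in replicate 1 than in replicate 2, at 2.08 against 1.57 and at 2.01 against 1.56. The dehydrin ERD14, a protein of cold and drought responses, rose by 1.11 to 10.30 and 10.40, against 9.19 and 9.28 at 4 SD (adjusted p = 0.0289). Of these 3 calls, only that of the first NCED probe set held without 6 SD replicate 2. The ABA-responsive element-binding factor BZIP1 read 9.55 and 9.63 at 6 SD, against 6.30 and 8.12 at 4 SD, and its difference of 2.38 did not pass (adjusted p = 0.0777). A second BZIP1 probe set, the one named in the published study, read 11.42 and 11.14 at 6 SD, against 8.50 and 10.34 at 4 SD. Its difference of 1.86 did not pass either (adjusted p = 0.139).

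Gibberellin-related transcripts were mixed between members and between replicates. Of 38 probe sets, 3 of them from the published list, 2 rose and 0 fell, beside 0.476% called higher over all probe sets. The median of the 38 was 0.03 in replicate 1 and 0.29 in replicate 2. Both rises were of GASA genes, which encode small cysteine-rich proteins named for their response to gibberellin. GASA4 read 10.69 and 11.48 at 6 SD, against 8.69 and 9.52 at 4 SD, and rose by 1.98 (SE 0.30, adjusted p = 0.038), a call that ended without 6 SD replicate 2 (difference 1.59). GASA6 read 11.12 and 11.75 at 6 SD, against 9.97 and 10.03 at 4 SD, and rose by 1.43 (SE 0.20, adjusted p = 0.0316). The calls of GASA4 and GASA6 were among the 39 of 58 named calls that ended when the arrays were weighted. GASA11 was high in replicate 2 alone, with 8.62 and 10.59 at 6 SD against 7.62 and 8.62 at 4 SD (adjusted p = 0.249). GA2OX6, a gibberellin 2-oxidase that inactivates the hormone, was low in replicate 2 alone, with 7.21 and 4.28 at 6 SD against 7.84 and 6.60 at 4 SD (adjusted p = 0.375).

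Auxin-related transcripts moved in both directions. Of 19 probe sets, 2 rose, 1 fell and 16 did not pass, beside 0.476% called higher and 0.0612% lower over all probe sets. The published list supplied 10 of the 19. IAA4, of the Aux/IAA family that represses auxin-responsive genes, read 8.20 and 8.04 at 6 SD, against 6.52 and 6.56 at 4 SD, and rose by 1.58 (SE 0.12, adjusted p = 0.0059). An efflux carrier, which moves auxin out of cells, read 10.63 and 11.02 at 6 SD, against 9.40 and 9.83 at 4 SD, and rose by 1.21 (SE 0.19, adjusted p = 0.04). Another auxin-responsive Aux/IAA transcript read 6.11 and 5.60 at 6 SD, against 7.20 and 7.04 at 4 SD, and fell by 1.27 (SE 0.19, adjusted p = 0.0377). The calls of the carrier and of this transcript ended without 6 SD replicate 2. An auxin-responsive family transcript had a larger difference, −1.62, with 6.30 and 6.77 at 6 SD against 8.44 and 7.88 at 4 SD, but no call (adjusted p = 0.0538). The IAA4 probe set ends in _x_at, which marks probes that may also bind other transcripts.

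Among the other hormones, 0 of 38 probe sets for jasmonate synthesis and 0 of 15 for brassinosteroids passed by limma, and 1 of 17 for ethylene rose. Over all probe sets 0.476% were called higher and 0.0612% lower. At an unadjusted p under 0.05 there were 8 jasmonate and 3 brassinosteroid probe sets, beside 17.0% of all probe sets. In the jasmonate list, with 4 of its 38 members from the published list, 17 had both 6 SD arrays above both 4 SD arrays, beside 20.9% of all probe sets. The median of the jasmonate list was 0.20 in replicate 1 and 0.11 in replicate 2. Its largest difference was that of allene oxide synthase CYP74A1, at 9.85 and 10.14 at 6 SD against 8.59 and 9.24 at 4 SD (1.08, adjusted p = 0.101). The ethylene-responsive transcript that rose read 9.80 and 9.92 at 6 SD, against 8.81 and 9.08 at 4 SD (difference 0.91, adjusted p = 0.0385), a call that ended without 6 SD replicate 2.

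A transcript for trehalose-6-phosphate phosphatase, which converts the signalling sugar trehalose-6-phosphate into trehalose, had the second largest named rise. It read 9.65 and 11.23 at 6 SD, against 6.12 and 7.08 at 4 SD, a difference of 3.83 (SE 0.48, adjusted p = 0.0221), or 14.3-fold, with 3.04 in replicate 1 and 4.62 in replicate 2. The other 3 trehalose probe sets differed less. A second phosphatase transcript differed by 0.26, trehalose-6-phosphate synthase by 0.78 and trehalase TRE1 by −0.06, and none of these 3 passed (adjusted p between 0.158 and 0.858). Beta-amylase BMY2, an enzyme of starch breakdown, was high in replicate 1, with 9.79 and 7.83 at 6 SD against 7.38 and 7.06 at 4 SD on 1 of its probe sets (adjusted p = 0.259). The BMY2 probe set named in the published study differed by 1.09 (adjusted p = 0.0885), and by 0.88 to 1.30 in the alternative fits. Another differed by 1.31 (adjusted p = 0.35). Of the 23 probe sets for sugar transport and starch, 0 were called by limma and 7 had an unadjusted p under 0.05. Over all probe sets 0.476% were called higher, 0.0612% lower and 17.0% had such an unadjusted p, so this count of 0 is no result about these genes. The lowest adjusted p among the 23 was 0.0572, for the sucrose transporter SUT1.

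Cell wall transcripts supplied 4 rises and 0 falls out of 31, beside 0.476% and 0.0612% over all probe sets. Of the 31, 10 come from the published list. A proline-rich extensin-like transcript, of the structural wall proteins, read 8.66 and 9.36 at 6 SD, against 5.13 and 5.90 at 4 SD, and rose by 3.49 (SE 0.44, adjusted p = 0.0221). Glycosyl hydrolase family 9, the family that holds plant cellulases, gave 2 rises. The first read 10.67 and 11.24 at 6 SD, against 7.69 and 9.07 at 4 SD (difference 2.57, SE 0.39, adjusted p = 0.0361), and the second read 8.54 and 7.69 at 6 SD, against 5.89 and 6.34 at 4 SD (difference 2.00, SE 0.29, adjusted p = 0.0341). The second was farther up in replicate 1 and the first in replicate 2. A leucine-rich repeat extensin-like transcript rose by 1.80 (adjusted p = 0.0461), although the platform gives this probe set the symbol of a heat shock factor, HSF-01. Without 6 SD replicate 2 the calls of both extensin-like transcripts and of the first hydrolase ended, with differences of 3.14, 1.47 and 2.29.

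Isoflavonoid and flavonoid synthesis showed opposite movements of related enzymes. Isoflavone reductase, which acts late in the synthesis of soybean's isoflavonoid defence compounds, read 7.67 and 8.69 at 6 SD, against 4.88 and 5.02 at 4 SD, and rose by 3.24 (SE 0.31, adjusted p = 0.00723). Isoflavone synthase, the entry enzyme of this branch, was measured by probe sets for both of its genes. The one carrying the symbol IFS2 read 9.80 and 9.64 at 6 SD, against 8.44 and 8.63 at 4 SD, and rose by 1.18 (SE 0.14, adjusted p = 0.018). The one carrying IFS1 read 4.64 and 4.48 at 6 SD, against 7.74 and 6.42 at 4 SD, and fell by 2.52 (SE 0.42, adjusted p = 0.0472), the largest fall of all 23. RefSeq lists each of these symbols as a synonym of the other gene as well, and both are _s_at sets, whose probes can bind near-identical transcripts, so the assignment to a gene is uncertain. The call of IFS1 ended without 6 SD replicate 2 (difference −2.44), under the limit to brighter probe sets and after another quantile normalization. Dihydroflavonol 4-reductase DFR2, which leads towards anthocyanins, read 5.07 and 4.67 at 6 SD, against 6.56 and 6.40 at 4 SD, and fell by 1.61 (SE 0.17, adjusted p = 0.0106). Of 78 probe sets of this pathway 2 rose, 2 fell and 74 did not pass, and the median difference was 0.002. Over all probe sets 0.476% were called higher and 0.0612% lower. The published list supplied 5 of the 78.

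Among transcription factors outside these groups, NAC12 rose most. It read 7.28 and 8.54 at 6 SD, against 4.35 and 4.93 at 4 SD (difference 3.27, SE 0.37, adjusted p = 0.0133), and a second NAC12 probe set read 4.87 and 5.04 at 6 SD, against 3.98 and 3.89 at 4 SD (difference 1.02, adjusted p = 0.0238). With NAC51, 3 of 31 NAC probe sets rose. NAC27 read 8.96 and 7.84 at 6 SD, against 6.56 and 5.37 at 4 SD, and did not pass (adjusted p = 0.0891). A basic helix-loop-helix transcript read 6.64 and 7.50 at 6 SD, against 4.33 and 4.75 at 4 SD, and rose by 2.53 (SE 0.26, adjusted p = 0.0104). MYB factors gave 3 rises among 106 probe sets, 2 of them probe sets of MYB57, which rose by 1.80 (1.83 in replicate 1 and 1.76 in replicate 2) and by 1.49 (1.66 and 1.33), with adjusted p = 0.0498 and 0.0456. A bZIP transcript was the 1 rise among 97 bZIP probe sets, at 7.63 and 7.98 at 6 SD against 6.18 and 6.41 at 4 SD (difference 1.51, adjusted p = 0.0172). Of 103 WRKY probe sets, 0 were called by limma and 15 had an unadjusted p under 0.05. These counts and the 1 of 97 bZIP sets are near the 0.476% called higher and the 17.0% at an unadjusted p over all probe sets. When 6 SD replicate 2 was dropped, the calls of the second NAC12 set, NAC51, all 3 MYB sets and the bZIP transcript ended, while those of the first NAC12 set and the basic helix-loop-helix transcript held. WRKY57 was high in replicate 2 alone, with 6.57 and 8.66 at 6 SD against 5.97 and 5.80 at 4 SD.

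Receptor-like kinases and calcium signalling each gave 2 rises and 0 falls. A leucine-rich repeat kinase, of the family that perceives signals at the cell surface, read 7.996 and 8.04 at 6 SD, against 6.14 and 6.28 at 4 SD, and rose by 1.80 (SE 0.15, adjusted p = 0.0064). Another rose by 1.90 to 9.64 and 10.28, against 7.96 and 8.17 at 4 SD (adjusted p = 0.0275). They are 2 of 33 kinase probe sets, 7 of which come from the published list, beside 0.476% called higher over all probe sets. Both calcium signalling rises, of 29 probe sets with 7 from the published list, belong to 1 calmodulin-binding transcript group. The first read 9.38 and 9.50 at 6 SD, against 7.11 and 7.97 at 4 SD (difference 1.91, adjusted p = 0.0316), and the second read 7.91 and 7.45 at 6 SD, against 5.96 and 6.38 at 4 SD (adjusted p = 0.0488). Of these 4 calls, all but that of the first kinase ended without 6 SD replicate 2.

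Single transcripts of metabolism and defence were among the strongest rises. A cytochrome P450, of the oxidising enzymes, had matching replicates, 10.77 and 10.75 at 6 SD against 7.91 and 8.55 at 4 SD, and rose by 2.53 (SE 0.24, adjusted p = 0.00723). Tryptophan synthase beta chain TSB, which makes the amino acid from which auxin can be formed, read 6.81 in both arrays at 6 SD, against 4.77 and 4.68 at 4 SD, and rose by 2.09 (SE 0.17, adjusted p = 0.00622). The water channel PIP2-8 read 8.09 and 7.91 at 6 SD, against 5.68 and 6.11 at 4 SD, and rose by 2.11 (SE 0.18, adjusted p = 0.0064). It was the 1 rise among 35 aquaporin probe sets, beside 0.476% called higher over all probe sets. A second PIP2-8 probe set read 7.22 and 6.70 at 6 SD, against 5.92 and 5.88 at 4 SD, and did not pass (difference 1.06, adjusted p = 0.0952). The Kunitz trypsin inhibitor KTI3 read 6.94 and 7.25 at 6 SD, against 4.59 and 5.14 at 4 SD, and rose by 2.23 (SE 0.20, adjusted p = 0.00664). For the P450, TSB, the first PIP2-8 set and KTI3, the differences were 2.54, 2.09, 2.20 and 2.07 in replicate 1. In replicate 2 they were 2.52, 2.08, 2.01 and 2.39. In the fit on the 4 arrays of 6 and 4 SD alone, 0 of the 58 named calls held, these 4 included.

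The glycine-rich RNA-binding protein GRP7, which in Arabidopsis is under clock control, read 11.53 and 12.14 at 6 SD, against 8.68 and 9.73 at 4 SD, and rose by 2.63 (SE 0.34, adjusted p = 0.0225). Without 6 SD replicate 2 its difference of 2.32 did not pass. The remaining large rises were those of a sarcosine oxidase (2.80), a ferric-chelate reductase (2.30), a transcript annotated as a chloroplast nucleoid DNA-binding protein (2.30), the methyltransferase SABATH1 (2.27), whose family methylates small acids such as salicylate, and a cupin (2.20), with adjusted p between 0.0104 and 0.0361. Of these, the call of SABATH1 ended without 6 SD replicate 2. The 2 largest rises without a name were those of a probe set at 8.78 and 7.93 at 6 SD against 3.68 and 5.15 at 4 SD (difference 3.94), and of another at 9.39 and 9.60 at 6 SD against 5.21 and 6.51 at 4 SD (difference 3.64). Both were picked after their values were seen. Of the remaining lists, 0 of 43 glutathione transferase, 0 of 15 myo-inositol and 0 of 10 polyamine probe sets were called by limma, with 11, 4 and 2 at an unadjusted p under 0.05. Over all probe sets 0.476% were called higher, 0.0612% lower and 17.0% had such an unadjusted p. These counts of 0 are thus no result about these genes. In 4 of the 5 probe sets for arginine decarboxylase ADC, an enzyme of polyamine synthesis, 6 SD replicate 2 lay below both 4 SD arrays, and replicate 1 did so in 0. Over all probe sets, replicate 2 lay below them together with replicate 1 in 26.6%, and with replicate 1 above them in 9.9%. Replicate 2 was also offset downward in the brighter deciles, so the count is no result about ADC. Among the ADC probe sets, the widest gap between the 6 SD arrays was at 10.87 and 8.73 at 6 SD against 11.39 and 10.16 at 4 SD (adjusted p = 0.557).

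**Figure D5:**
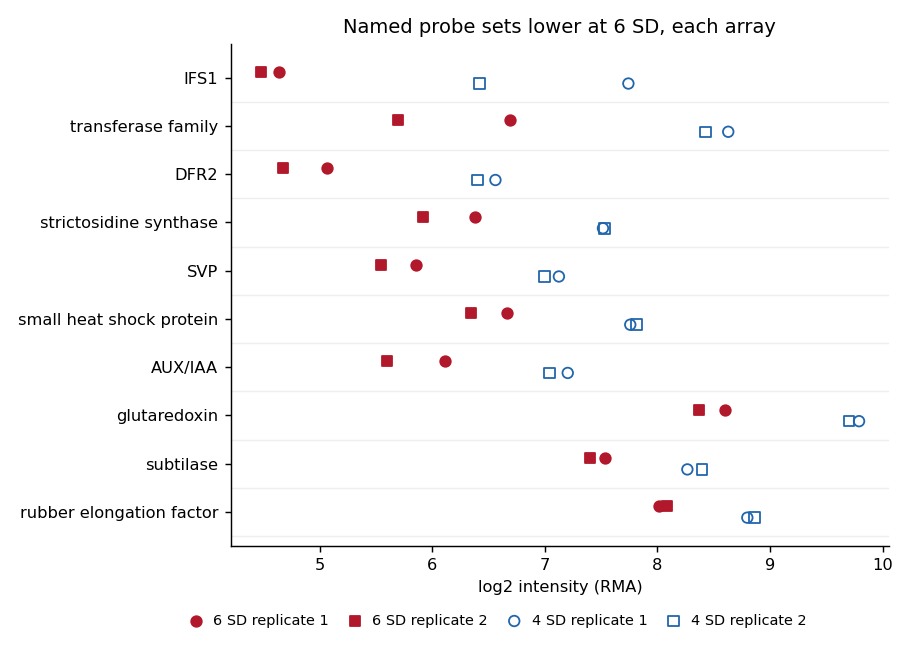
Log2 intensity in each 6 SD array (filled) and each 4 SD array (open) of the 10 named probe sets that fell, circles for replicate 1 and squares for replicate 2. In every row both filled points lie to the left of both open points, from differences of −2.52 for IFS1 to −0.78 for the rubber elongation factor.

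The other named falls were of varied function. A transferase family transcript read 6.69 and 5.69 at 6 SD, against 8.63 and 8.43 at 4 SD, and fell by 2.34 (SE 0.29, adjusted p = 0.0202), more in replicate 2 than in replicate 1. A strictosidine synthase family transcript read 6.38 and 5.92 at 6 SD, against 7.52 and 7.53 at 4 SD, and fell by 1.38 (SE 0.18, adjusted p = 0.027). A class I small heat shock protein, a chaperone, read 6.66 and 6.35 at 6 SD, against 7.76 and 7.82 at 4 SD, and fell by 1.28 (SE 0.16, adjusted p = 0.0225). A glutaredoxin, which reduces disulphides, read 8.60 and 8.37 at 6 SD, against 9.79 and 9.70 at 4 SD, and fell by 1.26 (SE 0.19, adjusted p = 0.0378). Smaller falls were those of a subtilase, a protein-cleaving enzyme, and of a rubber elongation factor family transcript (−0.86 and −0.78). Of the 10 named falls, the calls of DFR2 and the transferase held without 6 SD replicate 2, and in the other 8 the sign stayed but the call ended.

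Most rises lay outside the range of the earlier arrays. In 176 of the 179 and in all 23 falls, both 6 SD arrays lay beyond all 8 arrays of 0 to 4 SD. All of them already lay beyond both 4 SD arrays. The share of all probe sets beyond the 8 arrays was not counted, so these counts only describe the called probe sets. The same holds for the next count. The mean at 4 SD was already at least 1 above that at 0 SD in 11 of the 179, AP1, AP1A and the second NCED probe set among them, and the median difference between 4 and 2 SD over the 179 was 0.06. The 4 SD arrays were not equally near: in 143 of the 179, 4 SD replicate 2 lay closer to the 6 SD arrays than replicate 1, whereas over all probe sets 4 SD replicate 2 was above replicate 1 in 50.5%. For comparison, the preceding step, 4 against 2 SD, had 2 called probe sets in the same fit, and 2015 at an unadjusted p under 0.05 against 6387 for 6 against 4 SD. Whether the steps differ was not tested.

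The published clusters of changing transcripts differed in how much of their change fell in this step. In cluster 7, which holds both SEP1 transcripts, all 12 members rose, with a median of 2.83 in replicate 1 and 3.45 in replicate 2. In cluster 8, 31 of 51 rose, in cluster 5, 18 of 29, in cluster 6, 12 of 78, and in cluster 4, with AP1 and AGL9, 3 of 9. Cluster 2 had 0 of 56 and a median difference of 0.43. Of the falling clusters, 9 of 26 in cluster 9 and 6 of 63 in cluster 1 fell. These clusters were formed on the same arrays, and the counts only place their change in time.

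Markers of other tissues gave the following values, and their part in the rises was not tested. Of 14 phloem probe sets (sieve element occlusion proteins and SUT1), 12 lay below the array median in all 4 arrays. SEOC rose to 5.79 and 5.63, against 4.60 and 4.82 at 4 SD (difference 1.00, adjusted p = 0.038), a call that 6 SD replicate 2 was needed for, and the log2 of the summed level of the list was 10.16 and 9.57 at 6 SD against 9.32 and 9.37 at 4 SD. The 12 leaf mesophyll probe sets, for chlorophyll-binding proteins and Rubisco activase, had 0 calls and log2 sums of 15.31 and 15.75 at 6 SD against 15.49 and 15.52 at 4 SD. The 3 for PHANTASTICA, a gene of leaf primordia, had 0 calls and sums of 12.68 and 12.57 at 6 SD against 12.88 and 12.80 at 4 SD. Of 2 lipid transfer protein sets taken as markers of epidermis, 1 rose (by 1.51, adjusted p = 0.0318), and the sums were 12.11 and 11.94 at 6 SD against 11.61 and 11.78 at 4 SD. Both sets come from the published list, so they were selected on these same arrays and are not independent evidence on tissue content. The 4 meristem probe sets had sums of 12.75 and 12.54 at 6 SD against 11.87 and 12.19 at 4 SD with 0 calls. Of these 4, 3 come from the published list, so the same limit holds. The 2 histone H4 probe sets, taken as markers of dividing cells, had 0 calls and sums of 5.39 and 5.60 at 6 SD against 5.36 and 5.57 at 4 SD. Both lay below the array median in all 4 arrays, so their 0 calls are no result about dividing cells. At an unadjusted p under 0.05 there were 5 of the 14 phloem, 1 of the 2 epidermis, 3 of the 4 meristem, 1 of the 12 mesophyll, 1 of the 3 PHANTASTICA and 0 of the 2 histone probe sets. Over all probe sets 0.476% were called higher, 0.0612% lower and 17.0% had such an unadjusted p. The 0 calls of the mesophyll, PHANTASTICA and meristem sets are thus no result about these tissues either.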

How the data were processed

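The deposited table holds log2 intensities that the authors made with RMA (which corrects the background, equalises the distributions of the arrays and summarises probes into probe sets) in AffylmGUI, without pooling replicates; the version is not given in the sources used here. Of 37746 rows, 105 control and 48 rRNA probe sets were left out. Means of the 5 time points were fitted to all 10 arrays with limma 3.58.1 in R 4.3.3 (5 residual degrees of freedom), and the contrast of 6 minus 4 SD was tested on both sides, with Benjamini-Hochberg adjustment over all 37593 probe sets, a threshold of 0.05 and no filter. The fit was tested on simulated data. The number of arrays limits the precision. For each probe set, the p-value rests on replicate differences pooled over all 5 time points, not on those of 6 and 4 SD alone. Replicates lay farther apart at 6 SD than at 4 SD (median gap 0.28 against 0.15). In the fit with array weights, both 6 SD arrays had a weight of 0.395, against 0.851 to 1.893 for the other arrays. The main fit makes no allowance for this unequal spread, so its p-values may be too small. Of the probe sets, 8677 have 1 gene symbol in the platform annotation, 370 have several and are not named by them, and 28546 have none. Of the symbols, 8652 were matched to RefSeq by gene number. Other names come from the study's annotation, which matches soybean transcripts to Arabidopsis proteins and was at hand only for its 331 listed transcripts. Members of the gene and marker lists named only in this way were thus selected on these same arrays. Named were the 15 largest rises and the 15 largest falls that passed, lay above the median intensity at the brighter time point and had an annotation, with falls filled up by separated probe sets without a call, and up to 4 members of each gene list. The members and lists were chosen with earlier results of these data known. Alternatives were a filter on dim probe sets, 3 other scalings, a trended robust prior, array weights, a replicate block, the 4 arrays alone, and each array left out. Genome coordinates and sequences were not used here.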

Additional observations from a re-analysis of the deposited data

How the results depend on the processing

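No probe set called in the fit described above changed sign under any alternative, but the counts of calls moved widely. Only the 3 other scalings could have changed a sign, since both 6 SD arrays lay beyond both 4 SD arrays in every called probe set. Leaving out single arrays gave between 2 and 3554 higher and between 0 and 2557 lower probe sets. The count of probe sets separated by at least 1 uses the 6 and 4 SD arrays alone, and leaving out 1 of these 4 gave between 205 and 1257 upward and between 34 and 841 downward, against 170 and 20 with all 4. With dim probe sets left out, 84 were higher and 16 lower of 20366 tested, and 110 and 13 were separated. Centring on a common median, which shifts the median difference of all probe sets to 0.06, gave 275 higher and 21 lower. Array weights gave 37 higher and 3 lower. The 4 arrays of 6 and 4 SD alone gave 0 and 0 by limma, with 3749 at an unadjusted p under 0.05 (1950 higher and 1799 lower). Another quantile normalization (168 and 24), scaling to a common interquartile range (261 and 27) and a trended robust prior (245 and 26) stayed within 1.5 times of the main counts. A replicate block gave 350 higher and 66 lower, among them all 179 and all 23. The replicate numbers are not stated to pair the collections, and the deviations of replicate 1 from the mean at 6 and at 4 SD correlated at 0.19 across probe sets. The causes of these shifts were not tested.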
